A study of Mus musculus with 6 samples.

Results

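The 9 genes Hmgcs1, Idi1, Fdps, Fdft1, Sqle, Lss, Cyp51, Msmo1 and Nsdhl encode enzymes of cholesterol synthesis, and they were described here out of 18193 genes named on the arrays. All probe sets that the platform annotation assigns to 1 of these symbols were taken, 23 in all. Liver RNA of male hybrid B6SJL mice aged 32 to 37 days was hybridised to Affymetrix mouse 430A and 430B arrays, 1 of each design for each of 3 genotypes. LT mice carried ApoErtTA:TRE2-TAg and were induced to make the SV40 large T and small t oncoproteins. 17kT mice carried a transgene pair labelled the same way and were induced to make the 17kT protein and small t. WT mice had no transgene, so any effect of ApoErtTA itself cannot be told apart from that of the viral proteins in a comparison with WT. Every mouse, WT included, received doxycycline at 25 µg/ml and 2.5% sucrose in the drinking water over 4 days. rtTA is a transcription factor that doxycycline switches on, and TRE is the promoter element it binds. Large T binds and inactivates the retinoblastoma proteins and p53, while 17kT is a truncated form that keeps the site for the retinoblastoma proteins and not the one for p53. The sources used here do not say whether an RNA sample came from 1 mouse or from a pool. No value here measures a viral transcript, and the genotypes therefore rest on the labels alone.

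Cholesterol is built from acetyl-CoA in a chain of reactions that first makes mevalonate and isoprenoid building blocks, then squalene, and then folds and trims squalene into sterols. The liver is a main site of this synthesis. The genes are known as joint targets of SREBP2, a membrane-bound transcription factor that is released to the nucleus when the endoplasmic reticulum runs low on sterol. Scap escorts SREBP2 out of the endoplasmic reticulum, and Insig1 and Insig2 hold it back when sterol is plentiful.

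Promoter sequences are shown for Hmgcs1, the 1 member with an exact SREBP site in the window searched, and Msmo1, the member with the largest decrease on the arrays. The sequences are from RefSeq on GRCm38.p6, run 5′ to 3′ on the gene's own strand and cover 250 bases before and 50 after the annotated start. Such a window was in the table for 6 of the 9 members (Hmgcs1, Idi1, Lss, Cyp51, Msmo1 and Nsdhl). Capitals mark every exact match, on either strand, of the SREBP site TCACNCCAC, the CCAAT box and the GC box GGGCGG, and no 2 of these matches overlapped.
Hmgcs1 (chr13:119690101-119690400, plus strand): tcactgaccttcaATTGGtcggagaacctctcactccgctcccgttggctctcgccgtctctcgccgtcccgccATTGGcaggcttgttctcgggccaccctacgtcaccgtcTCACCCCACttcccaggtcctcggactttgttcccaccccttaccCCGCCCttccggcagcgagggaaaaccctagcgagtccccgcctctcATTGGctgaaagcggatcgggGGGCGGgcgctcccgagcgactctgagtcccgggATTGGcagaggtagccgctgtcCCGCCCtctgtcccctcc
Msmo1 (chr8:64733529-64733828, minus strand): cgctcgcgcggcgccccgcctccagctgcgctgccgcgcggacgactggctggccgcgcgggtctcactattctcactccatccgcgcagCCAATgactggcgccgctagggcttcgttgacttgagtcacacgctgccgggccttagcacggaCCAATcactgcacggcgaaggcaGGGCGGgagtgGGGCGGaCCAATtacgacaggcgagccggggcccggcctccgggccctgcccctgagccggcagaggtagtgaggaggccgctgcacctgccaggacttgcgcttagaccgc

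The Hmgcs1 window held 1 SREBP site, which begins 137 bases before the start, with 4 CCAAT boxes and 3 GC boxes. The Msmo1 window held 3 CCAAT boxes, 2 GC boxes and no exact SREBP site. An exact SREBP site was found in 1 of the 6 windows of members and in 1.24% of all 32851 windows. With at most 1 mismatch it was found in 4 of the 6 (Hmgcs1, Cyp51, Msmo1 and Nsdhl) and in 24.2% of all windows. The 1-mismatch matches include the exact one, and 1 of those in Msmo1 shares a base with a CCAAT box. Each of the 6 windows held at least 1 CCAAT box, against 37.4% of all windows, and at least 1 GC box, against 35.7%. These matches describe letters in the window and not binding.

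Signals are the authors' MAS5 intensities on a linear scale, and those quoted are the values as deposited. Ratios were taken within an array design on the log2 scale after low signals were raised to a floor. The floor was the median signal of a design, 90.4 for 430A and 140.5 for 430B. A gene was called higher or lower at 2-fold or more, that is at a log2 ratio of at least 1 in size. With 1 array per genotype and design there is no replicate check, no test and no p-value, and precision is limited by how few arrays there are. Where an array was at the floor, the fold is written as "at least". For the technical spread of a log2 ratio, 100 probe sets present on both designs were compared between the designs. Such a spread does not measure variation between mice of a genotype, which 1 array per genotype and design cannot give. The SD of the difference, divided by the square root of 2, was 0.23 (LT over WT), 0.28 (17kT over WT) and 0.26 (LT over 17kT). This SD leaves out a median offset of 430A from 430B of -0.25, 0.19 and -0.36 in the same order. Between the 2 brightest measured probe sets of a gene the SD, taken in the same way, was 0.54, 0.51 and 0.45. The hepatocyte marker Alb, the gene of serum albumin, had a signal of 23850 in LT, 18261 in 17kT and 28285 in WT, far above the floor in each.

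All 9 enzymes of cholesterol synthesis were lower in both transgenic livers than in WT liver. In LT the decreases ran from 2.34-fold for Sqle to 11.7-fold for Msmo1, with a median log2 ratio of -2.16 over the 9 genes against 0.02 over 12775 measured genes. In 17kT they ran from 3.67-fold for Fdft1 to 17.1-fold for Msmo1, with a median of -2.97 against 0.07 over 12992 measured genes. The background share of genes called lower was 9.01% in LT against WT and 8.64% in 17kT against WT. Both comparisons use the same WT arrays, so they are not independent of each other. In whole liver, fewer hepatocytes and less RNA per hepatocyte cannot be told apart.

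**Figure D1:**
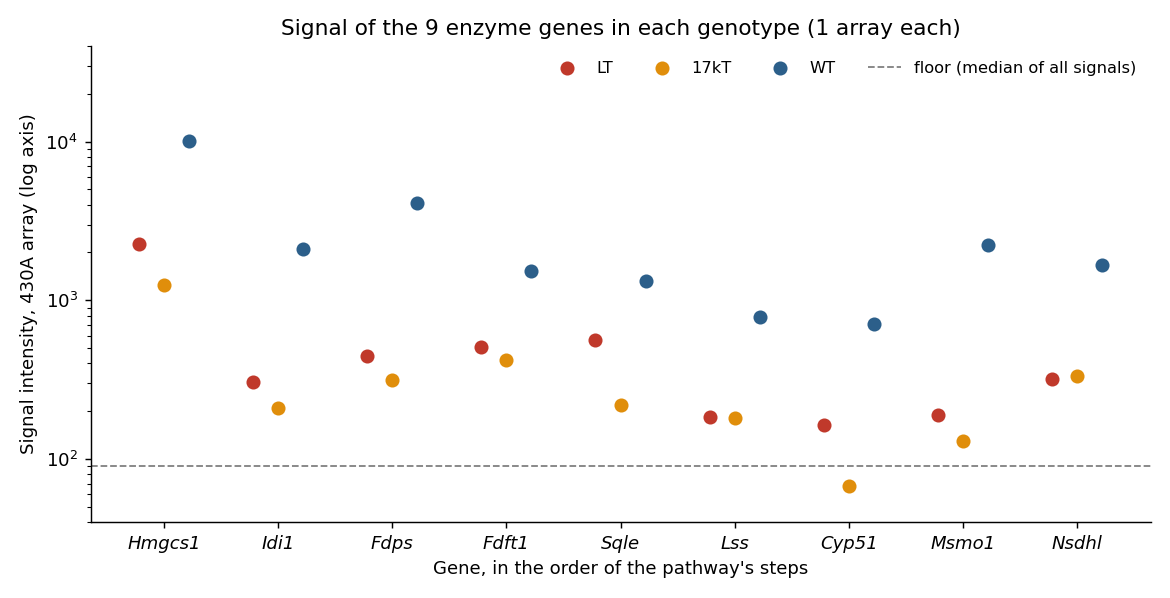
Signal intensity (log axis) of the probe set that represents each gene on the 430A array, with 1 point per genotype and array and no error bar because there are no replicates. The WT point is the highest for all 9 genes, and the 17kT point is the lowest for 8 of them. Signals of different genes come from different probes and are not comparable with each other.

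The isoprenoid steps come first. Hmgcs1 encodes the cytosolic synthase that makes HMG-CoA, the last intermediate before mevalonate is formed. Its signal was 2258 in LT, 1250.1 in 17kT and 10075 in WT. That is 4.46-fold lower in LT and 8.06-fold lower in 17kT than in WT. The other 3 Hmgcs1 probe sets on 430A gave between 4.29-fold and 4.65-fold lower in LT and between 6.07-fold and 11.5-fold lower in 17kT, so the 4 agreed more closely for LT than for 17kT. The fifth Hmgcs1 probe set, on 430B, was below the floor on every array.

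Idi1 encodes the isomerase that interconverts the pair of isoprenoid units from which longer chains are built. Its signal was 304 in LT, 211 in 17kT and 2108 in WT. It was 6.94-fold lower in LT, and its log2 ratio in 17kT was -3.32, a larger decrease. A second probe set read 83.0 in LT, 71.7 in 17kT and 543 in WT, which put it below the floor in both transgenic livers and at least 6.01-fold lower in each.

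Fdps encodes the synthase that joins these units into farnesyl diphosphate, the branch point between sterols and the non-sterol isoprenoids. Its signal was 449 in LT, 315 in 17kT and 4095 in WT. The decrease, 9.12-fold in LT and 13.0-fold in 17kT, was the second largest of the 9 genes in each genotype. Its other probe set was below the floor on all 3 arrays.

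Fdft1 encodes squalene synthase, the first enzyme committed to sterols. Its signal was 506 in LT, 418 in 17kT and 1535 in WT. It was 3.03-fold lower in LT and 3.67-fold lower in 17kT, and a second probe set gave 4.43-fold and 4.26-fold. The remaining 2 of its 4 probe sets stayed between 69.5 and 119 on all arrays, close to the floor, and gave no decrease: the bounds were a log2 ratio of 0.13 or more in LT for one and 0.39 or more in 17kT for the other.

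Sqle encodes squalene epoxidase, which adds the oxygen that squalene needs before it is folded into a ring system. It was measured by 1 probe set, with a signal of 565 in LT, 221 in 17kT and 1319.5 in WT. It was 2.34-fold lower in LT, the smallest decrease of the 9 genes there, and 5.98-fold lower in 17kT. Its call in LT was lost when arrays were scaled to the hybridisation controls, with a log2 ratio of -0.76.

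Lss encodes lanosterol synthase, which closes the rings. Its signal was 183 in LT, 182 in 17kT and 789 in WT, and it was 4.31-fold lower in LT and 4.34-fold lower in 17kT. This rests on a probe set of the _s_at kind, which can bind more than 1 transcript. Another Lss probe set read 64.2 in LT, 84.1 in 17kT and 116 in WT, with both transgenic arrays below the floor, and its bound was a log2 ratio of -0.36 or lower in each. The third was below the floor on all arrays.

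Cyp51 encodes the cytochrome P450 that removes a methyl group from lanosterol. Its signal was 163 in LT, 68.0 in 17kT and 706 in WT, the only member with its representing probe set below the floor on an array. It was 4.34-fold lower in LT and at least 7.81-fold lower in 17kT. A second probe set, at 70.2 in LT, 29.6 in 17kT and 228 in WT, was at least 2.52-fold lower in each, and the third was below the floor throughout.

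Msmo1 encodes the oxidase that attacks the methyl groups left on the sterol after Cyp51. Its signal was 191 in LT, 130.2 in 17kT and 2232 in WT. It was 11.7-fold lower in LT and 17.1-fold lower in 17kT, the largest decrease of the 9 genes in each. A 430B probe set for Msmo1 was below the floor on all 3 arrays.

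Nsdhl encodes the dehydrogenase that works on the product of Msmo1. Its only probe set read 319 in LT, 334 in 17kT and 1671 in WT. Its log2 ratio was -2.39 in LT and -2.32 in 17kT, and it was the 1 member with a smaller decrease in 17kT than in LT.

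Of the 23 probe sets, 17 exceeded the floor in LT, in WT or in both, and 15 of these were lower by 2-fold, with 0 higher. The background share of probe sets called lower was 8.20%. In 17kT against WT the numbers were 15 lower and 0 higher of 17, with a background of 7.69%. Of the 16 probe sets above the floor in WT, 15 were lower in LT and 15 in 17kT, and the remaining one was the dim Lss probe set. These 16 were picked by their WT signal, which favours a decrease, and the share over all such probe sets was not computed. All values above the floor came from the 430A design, because both member probe sets on 430B were below it on every array.

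**Figure D2:**
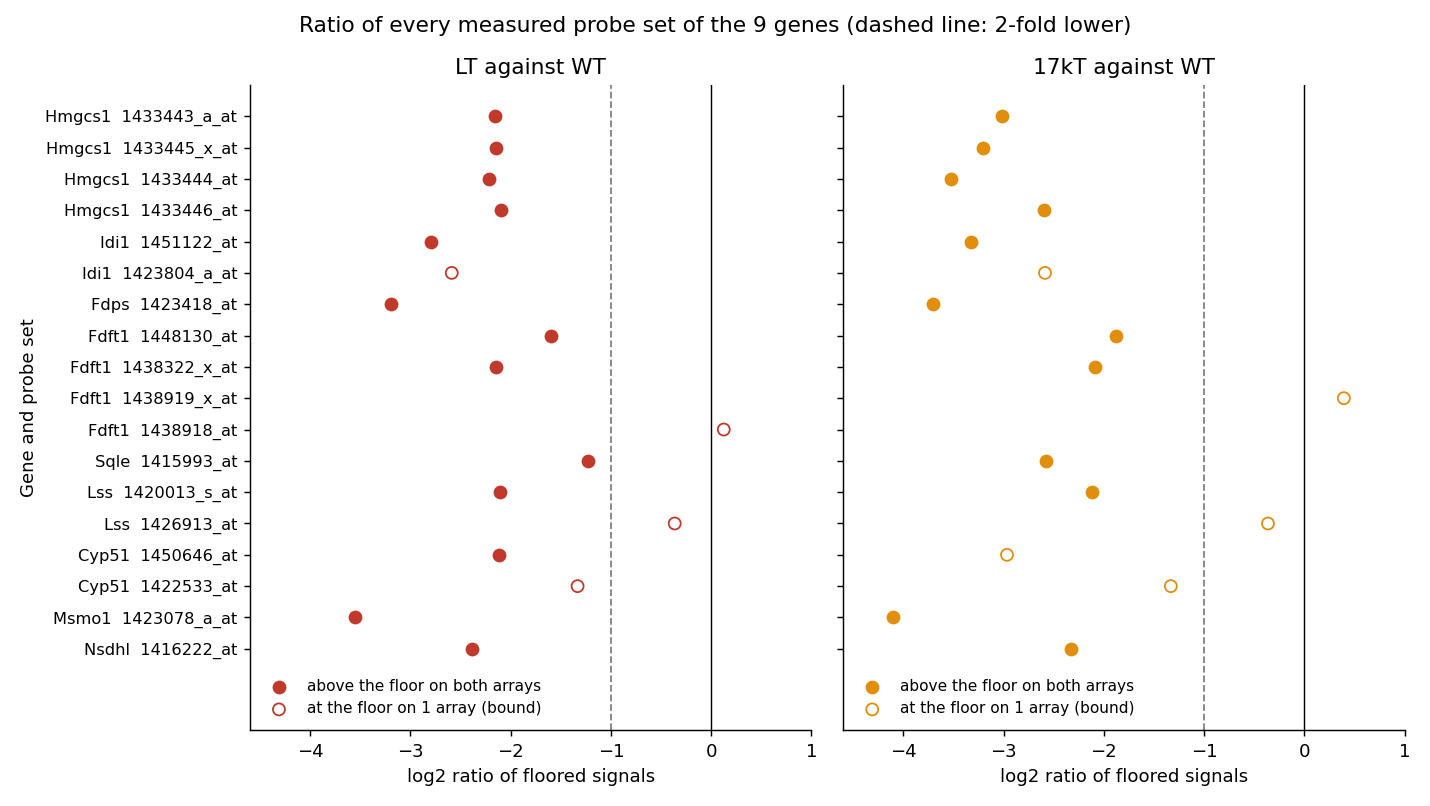
log2 ratio of floored signals for each of the 18 member probe sets that exceeded the floor in any genotype, LT against WT on the left and 17kT against WT on the right. Filled points are above the floor on both arrays, open points are bounds with 1 array at the floor, and a probe set with both arrays at the floor has no point in that panel. In each panel 15 points lie left of the 2-fold line, and the others are open points close to 0.

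Other enzymes of the pathway mostly followed. In LT against WT 8 of 9 measured enzymes were lower and 1 was higher (median log2 ratio -1.80). In 17kT against WT 7 were lower, 1 was higher and 1 did not pass the size rule (median -1.78). Over the 6 scalings 7 or 8 were lower in LT and 5 to 8 in 17kT, the lowest counts with hybridisation controls, where Ebp fell short in both (log2 ratios -0.86 and -0.72) and Mvd in 17kT (-0.96). Together with the 9 members, 17 of 18 pathway enzymes were lower in LT and 16 of 18 in 17kT.

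Among the mevalonate enzymes, the kinase gene Mvk was 3.17-fold lower in LT and 3.44-fold lower in 17kT. Pmvk, the next kinase, was 3.68-fold and 3.52-fold lower, and the decarboxylase gene Mvd 3.98-fold and 2.91-fold lower. These 3 genes lie between Hmgcs1 and Idi1 in the pathway.

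Among the late enzymes outside the 9, Sc5d, the sterol desaturase, had the largest decrease, with a signal on 430B of 840.1 in LT, 323 in 17kT and 7358 in WT. It was 8.76-fold lower in LT and 22.8-fold lower in 17kT, and 1 of its 2 probe sets on 430A gave log2 ratios of -2.32 and -3.11, while the other was below the floor on every array. Dhcr7, the reductase of the last step in one route to cholesterol, was 3.48-fold lower in LT and had a log2 ratio of -2.32 in 17kT. Ebp, a sterol isomerase, was 2.51-fold and 2.47-fold lower. Hsd17b7, a ketosteroid reductase that acts after Nsdhl, was 2.83-fold lower in LT and had a log2 ratio of -0.95 in 17kT. Its probe sets disagreed, since 2 on 430B gave -0.47 and -2.12 in LT and 0.01 and -1.35 in 17kT. A second Hsd17b7 probe set on 430A was below the floor in LT and 17kT and close to it in WT (97.1), with a bound of -0.10 or lower in each.

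The exception was Lbr. Sterol reduction after Cyp51 can be carried out by the products of Tm7sf2 or Lbr, and the Lbr protein also anchors chromatin to the nuclear envelope. Lbr had a signal of 849 in LT, 923 in 17kT and 341.5 in WT. It was 2.49-fold higher in LT and 2.70-fold higher in 17kT, and it stayed above 2-fold under all 6 scalings, with log2 ratios from 1.09 to 1.78 in LT and from 1.22 to 2.02 in 17kT. Tm7sf2 had a signal of 164 in LT, 127 in 17kT and 640.0 in WT, and was 3.89-fold lower in LT and 5.05-fold lower in 17kT.

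Genes of the non-sterol branches, which use the same isoprenoids for dolichol, coenzyme Q and protein prenylation, did not pass the size rule in either direction. This held for 8 of 8 measured genes in LT against WT (median 0.07) and 8 of 8 in 17kT against WT (median -0.08), although the sign of the LT median turned with the scaling and 1 gene passed as higher in LT under 2 of the scalings. Among all genes 9.01% were called lower in LT and 8.64% in 17kT, so 0 of 8 lower lies close to the background. The share of all genes called higher than WT was not computed. The log2 ratios of the 8 non-sterol genes ran from -0.26 to 0.82 in LT and from -0.73 to 0.28 in 17kT. The lowest in LT were Fntb, a subunit of protein farnesyltransferase (-0.26), Coq2, of coenzyme Q synthesis (-0.26), and Ggps1, which extends farnesyl diphosphate (a bound of -0.09). The highest were Pggt1b (0.82) and Fnta (0.69), both of protein prenylation, and Nus1 (0.44), of dolichol synthesis. In 17kT the lowest were Coq2 (-0.73), Pdss2 (-0.56) and Nus1 (-0.20), and the highest Dhdds (0.28), Pggt1b (0.27) and Fntb (0.24).

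The sterol sensing and uptake genes were mixed, with 4 of 10 measured genes lower and 0 higher in LT against WT (median -0.58) and 5 of 11 lower and 1 higher in 17kT against WT (median -0.40, from -0.64 to 0.02 under the 6 scalings). Insig1, itself a known SREBP target, had a signal of 1122 in LT, 530.4 in 17kT and 11480 in WT, and was 10.2-fold lower in LT and 21.6-fold lower in 17kT. Insig2 was 7.18-fold and 5.71-fold lower, and Scap 3.72-fold and 2.62-fold lower. Stard4, a sterol carrier, was 2.02-fold lower in LT, at the threshold, and 3.48-fold lower in 17kT. Over the 6 scalings 3 or 4 genes of the list were lower in LT and 3 to 5 in 17kT. The shares of all genes called lower were 9.01% in LT and 8.64% in 17kT in the scaling used. Srebf2, which encodes SREBP2, had a signal of 211 in LT, 233.5 in 17kT and 308 in WT, with log2 ratios of -0.55 and -0.40 that did not pass the rule. Srebf1, which encodes the SREBP1 proteins, had a log2 ratio of -0.61 in LT and was 2.31-fold lower in 17kT. The highest ratios in LT were those of Mbtps1 (0.45) and Mbtps2 (0.35), the proteases that free SREBP, and Mylip (0.08), which degrades the LDL receptor. In 17kT Npc1l1, a sterol importer at the floor in WT, was at least 2.17-fold higher, and Mbtps1 (0.64) and Npc1 (0.34) did not pass the rule.

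Fatty acid synthesis is the other lipid pathway under SREBP control, and most of its genes were lower as well. In LT against WT 9 of 10 genes were lower and 0 higher (median -2.74), and in 17kT against WT 10 of 10 were lower (median -2.74). Over the 6 scalings 8 or 9 were lower in LT and 9 or 10 in 17kT. The lowest ratios in LT were Thrsp, a lipogenic regulator (61.0-fold), Acss2, which makes acetyl-CoA from acetate (log2 ratio -3.46), and Acacb, an acetyl-CoA carboxylase (at least 10.6-fold). In 17kT they were Thrsp (69.6-fold), Fasn, the fatty acid synthase (11.1-fold), and Acacb (at least 10.6-fold). The highest were Acaca, another acetyl-CoA carboxylase (log2 ratio -0.42), Elovl6, which lengthens fatty acids (-1.28), and Acly, which makes acetyl-CoA from citrate (-1.49), in LT. In 17kT they were Acaca (-1.03), Elovl6 (-2.01) and Elovl5, another elongase (-2.21).

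Oxysterol and LXR target genes, which answer to sterol excess, had 1 of 6 lower and 0 higher in each comparison with WT (medians -0.05 in LT and -0.21 in 17kT, both with a sign that turned with the scaling). Over the 6 scalings 0 or 1 genes were lower in each, and 0 or 1 higher in LT. With 6 genes, 1 lower is not set apart from the shares of all genes called lower (9.01% in LT and 8.64% in 17kT). The gene called lower was Cyp7a1, the rate-limiting enzyme of bile acid synthesis, at 2.17-fold lower in LT and 2.66-fold lower in 17kT. In LT the next lowest were the LXR gene Nr1h3 (-0.61) and the sterol exporter gene Abcg8 (-0.27), and the highest Abcg5 (0.76), Abcg1 (0.37) and Abca1 (0.18), which encode sterol exporters too. In 17kT Abcg8 (-0.48) and Nr1h3 (-0.36) were the next lowest, and Abcg5 (0.08), Abca1 (0.02) and Abcg1 (-0.06) the highest.

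**Figure D3:**
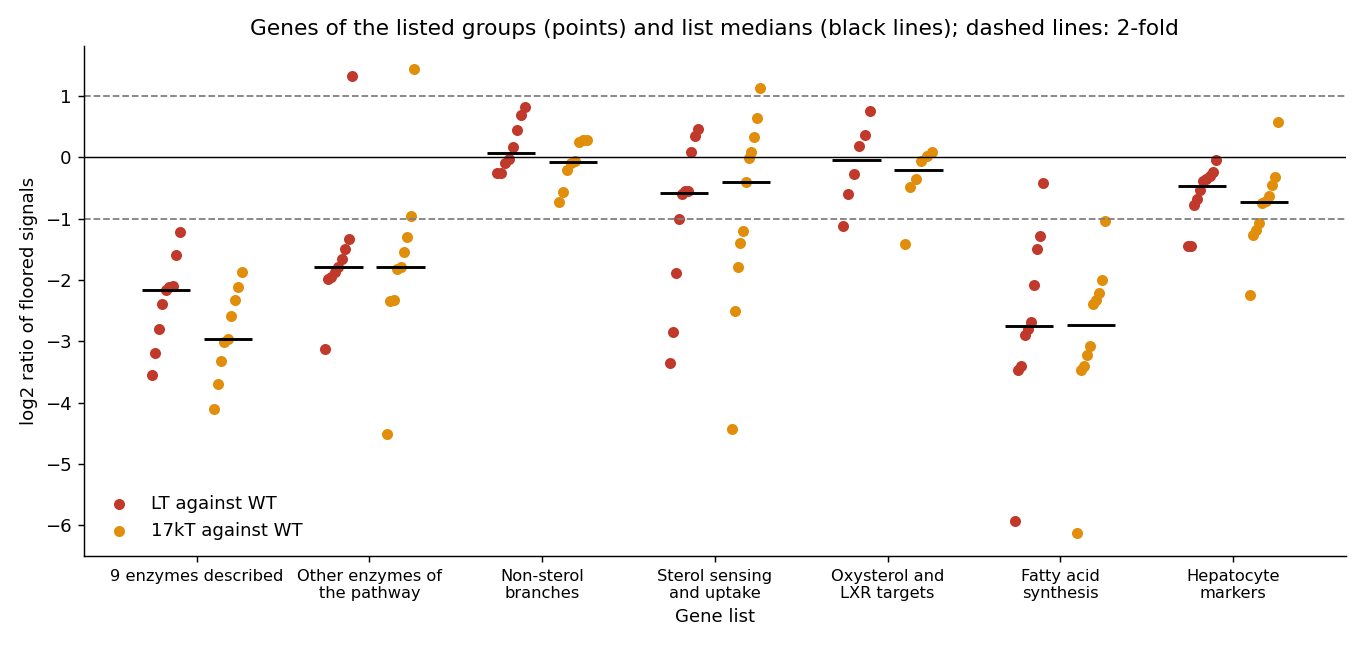
log2 ratio of floored signals for each measured gene of 7 gene lists, LT against WT in red and 17kT against WT in orange, with black lines at the list medians. The 9 enzymes described lie below the 2-fold line in both comparisons. Lbr is the point above it among the other enzymes of the pathway, and the non-sterol branches lie between the 2-fold lines in the scaling plotted (1 of them passes in LT under 2 other scalings).

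LT was then set against 17kT, which compares the full large T with the truncated form. No WT signal enters these ratios, although the WT arrays contributed to the floor and to the choice of probe set. Of the 9 members 8 had a higher ratio in LT and 1, Nsdhl, a lower one, with a median log2 ratio of 0.53 against -0.03 over 12541 measured genes. Only Sqle passed the size rule, at 2.56-fold higher in LT, and it stayed above 2-fold in every alternative that kept this rule (log2 ratios from 1.02 to 1.52). So 1 of 9 was called higher and 0 lower, against background shares of 4.47% higher and 4.23% lower. The median was 0.54 for the non-sterol branches (0.16 to 0.80 over the 6 scalings), 0.32 for fatty acid synthesis and 0.25 for oxysterol and LXR targets. For sterol sensing and uptake it was -0.15. A median above 0 in LT against 17kT was therefore not particular to the members. Cyp51 was at least 1.80-fold higher in LT and Hmgcs1 1.81-fold higher. The 4 Hmgcs1 probe sets gave log2 ratios of 0.50, 0.85, 1.05 and 1.31, so 2 of them passed the rule and 2 did not.

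Msmo1 (0.55), Idi1 (0.53) and Fdps (0.51) had log2 ratios beyond 1 SD of probe sets of the same gene (0.45) and short of 2-fold, although their lowest ratios over the 6 scalings (0.43, 0.41 and 0.39) lay within it. Fdft1 (0.27), Lss (0.01) and Nsdhl (-0.07) lay within it, so LT and 17kT liver did not differ beyond that spread in these 3 genes. Under the 6 scalings the ratios of Lss ran from -0.11 to 0.17 and those of Nsdhl from -0.18 to 0.10, while the other 7 members stayed above 0. Among the other enzymes of the pathway the median was -0.02. Sc5d was 2.60-fold higher in LT, and the 430A probe set of the gene that was above the floor gave a log2 ratio of 0.79. Hsd17b7 (-0.55) and Mvd (-0.45) had lower ratios in LT that did not pass the rule. A second Mvd probe set, below the floor in 17kT, pointed the other way, with a bound of 0.05 or more.

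**Figure D4:**
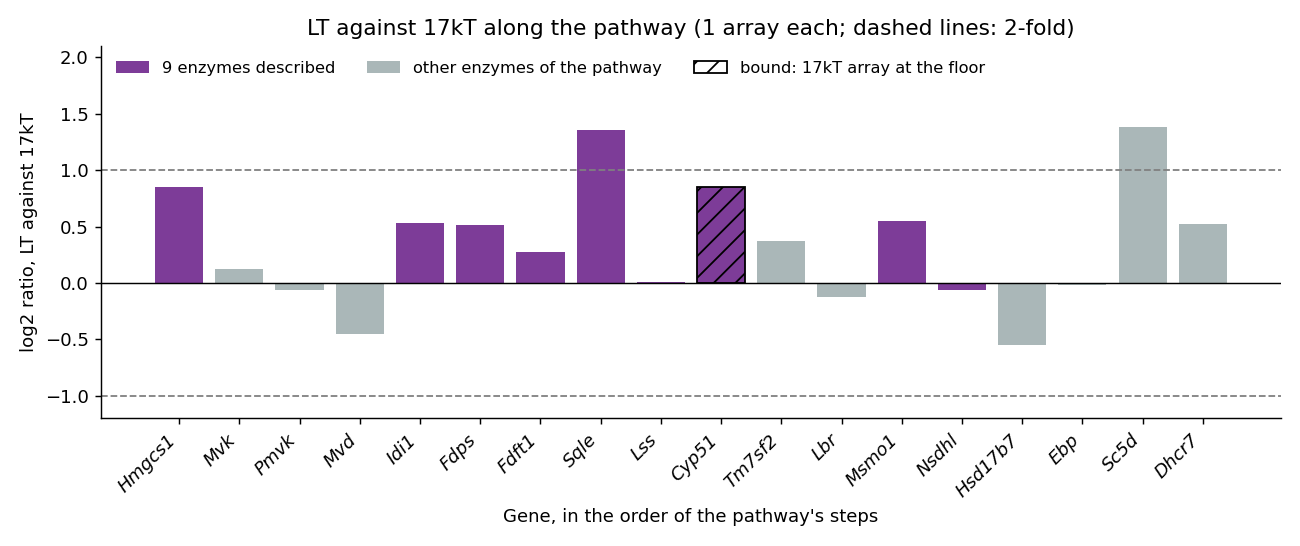
log2 ratio of LT against 17kT for 18 enzymes in the order of the pathway, 1 array each and no error bar, with the 9 members in purple. The hatched bar is a bound, because the 17kT array was at the floor for Cyp51. Sqle and Sc5d pass the 2-fold line.

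Some cell type markers and array quality measures also differed between genotypes, and their part in the results was not tested. The background share of genes called lower was 9.01% in LT against WT and 8.64% in 17kT against WT. The counts for the Kupffer cell and stellate lists lie close to these shares. Of 10 hepatocyte markers 2 were lower in LT and 4 in 17kT, with medians of -0.47 and -0.73 (0 to 4 lower in LT and 1 to 4 in 17kT over the 6 scalings) and a summed 430A signal over 9 of them of 112375 in LT, 92365 in 17kT and 160403 in WT. Kupffer cell and macrophage markers had 1 of 10 lower in LT and 0 in 17kT, with summed signals of 11901 in LT, 14886 in 17kT and 13961 in WT. Endothelial markers had 2 of 8 lower in LT, 1 lower and 1 higher in 17kT, and sums of 2663 in LT, 3409 in 17kT and 3864 in WT. Stellate and matrix markers had 1 of 7 measured lower in LT and 0 in 17kT, with 430A sums of 3803 in LT, 5610 in 17kT and 5218 in WT. The bile duct and progenitor markers Prom1 and Cd24a were at least 6.09-fold and at least 6.03-fold higher in LT, and the sum over 6 such markers was 1263.5 in LT, 311 in 17kT and 294 in WT, while Krt19, Krt7, Epcam and Sox9 were below the floor in every genotype. Neutrophil markers had 2 of 5 measured higher in LT and 1 of 3 in 17kT (sums 2564 in LT, 1944 in 17kT and 1162 in WT). Lcn2 made up most of each sum (1858 in LT, 1542 in 17kT and 749 in WT) and was the 1 called in 17kT. There Ngp (-0.53) and Elane (a bound of 0.45) did not pass the rule, and S100a8 and S100a9 were below the floor. The share of all genes called higher than WT was not computed. Of the lymphocyte markers Ighm was lower in both (sums 919 in LT, 849 in 17kT and 1214 in WT), and Cd3e, Cd3g, Nkg7 and Cd79b were below the floor in every genotype. Alas2, the only erythroid marker measured, was 14.0-fold lower in LT and 12.4-fold lower in 17kT. The adipose marker Fabp4 was 2.04-fold and 2.33-fold lower, with Adipoq below the floor everywhere. On the 430A arrays, from which the members' values come, the Gapdh control gave a 3′ to 5′ signal ratio of 3.08 in LT, 3.53 in 17kT and 5.81 in WT. The Actb control gave 2.52 in LT, 2.13 in 17kT and 2.57 in WT. Per the file headers, LT arrays were run on fluidics station 2 while the 17kT and WT arrays were run on station 1, so an effect of the station cannot be told apart from one of LT. The 17kT sample numbers lie far from those of LT and WT, and the 17kT signals carry more decimal places. The sources used here name no batch, and any difference in handling cannot be told apart from an effect of 17kT.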

How the data were processed

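Liver RNA was measured on 6 arrays, 1 per genotype and design. The authors deposited 1 linear signal intensity for each probe set. Per the submitters' processing notes MAS5 was used, in a version not given in the sources used here. A settings file per array, also deposited, holds other entries (station, scanner) and no expression values. The arrays' 2% trimmed means ranged from 250.03 to 250.12, so the authors had scaled them.

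Members, lists and the 2-fold rule were chosen with earlier results of these data known. Gene symbols came from the platform annotation (20393 of 22690 on 430A and 14674 of 22575 on 430B had 1 symbol), and symbols were checked by gene identifier against RefSeq for GRCm38.p6. Of 132 list entries 115 matched. Signals were scaled within a design to 1 trimmed mean, which changed them by under 0.01%, and floored at the design's median. A gene was represented by its probe set brightest over the floor (_x_at only without another). A gene was measured if either array of a comparison exceeded the floor. All enzymes of the pathway were named, and of each other lipid list the 3 highest and 3 lowest ratios against WT. Promoters came from the RefSeq table. Alternatives covered 5 other scalings, the floor, the choice of probe set, each design alone and a 3-fold rule. The code was tested on simulated arrays (Python 3.11.15, pandas 2.3.3, numpy 2.4.6).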

Additional observations from a re-analysis of the deposited data

How the results depend on the processing

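No paired analysis was possible because each genotype had 1 array per design and no test was made. The counts and medians of the members and the counts of the other pathway enzymes were recomputed under alternatives. Counting each result under each alternative, 131 values stayed within 1.5 times the count or within 1 technical SD of the median, and 13 moved further. The 131 include values that could hardly move, so they overstate how firmly the results held. The members' medians (-2.16 in LT and -2.97 in 17kT against WT) rounded alike with signals as deposited, 430A alone and a 3-fold rule. The probe sets representing members are all on 430A, and a fold rule does not enter a median. Counts of 0, such as members higher than WT, were also scored as unchanged. No median of the members changed sign. The members called lower numbered 7 to 9 in LT and in 17kT against WT, and 0 were higher in either under any alternative that measured them. The count was 8 in LT with hybridisation controls (without Sqle) and with a 3-fold rule (without Sqle), and 7 of 8 in each genotype without _x_at, _s_at and _a_at probe sets, where Lss fell short and Msmo1 was not measured. Scaling to hybridisation controls gave medians of -1.69 in LT and -2.43 in 17kT and moved the median of all genes to 0.37 and 0.33, so relative to all genes the members' medians were -2.06 and -2.75, against -2.18 and -3.04 in the scaling used. The 17kT median was -2.66 with quantile normalization, -2.32 with the floor at the 75th percentile, -2.33 with the floor as a pseudocount and -2.58 as a mean over probe sets. Members higher in LT against 17kT numbered 2 with scaling to the median of all probe sets, with the floor at the 25th percentile and without the 3 kinds of probe set, and 0 with a 3-fold rule. Other enzymes lower in LT against WT numbered 5 with the floor at the 75th percentile, and on 430B alone 1 of 2 measured in LT and 1 of 2 in 17kT. The 430B design alone gave no value for the members, all below its floor. The cause of these shifts was not tested, apart from the higher floors, which shorten ratios by construction. The alternatives applied to the gene lists and to single other enzymes were chosen after seeing the data.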

Other observations

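Among 9695 genes above the floor on all arrays of their design and outside the lists, the 5 whose pair of log2 ratios lay nearest to the medians of the 9 enzymes (-2.16 in LT and -2.97 in 17kT against WT) were Cldn2, Psen2, Uox, Hal and Mettl7b. The likeness was measured as the Euclidean distance over these 2 ratios from 3 arrays, and it was 0.09 for Cldn2 and 0.20 for Mettl7b. Cldn2, a tight junction protein, had a signal of 279 in LT, 161 in 17kT and 1305.5 in WT. Uox, the urate oxidase, had 2714 in LT, 1802 in 17kT and 12686 in WT. Hal, which starts histidine breakdown, had 591.5 in LT, 311 in 17kT and 2355 in WT. The median distance of the 9 enzymes from their own medians was 0.85, and 75 of the 9695 genes (0.77%) lay within it. The genes were chosen by this likeness, so it is a description and no test.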
